A study of Arabidopsis thaliana with 12 samples.

Results

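Seeds of the Arabidopsis thaliana mutant lhp1-6 were compared with seeds of Col-0, the wild-type accession, by bulk RNA-seq. The comparison used 6 of the 12 libraries of the series, 3 of lhp1-6 seed and 3 of Col-0 seed, and the genes at 1 TPM or more in 3 or more of those 6 libraries. TPM is transcript abundance per gene, corrected for gene length and scaled to the same total in each library. This left 18052 of the 26925 genes listed. Both genotypes were grown at 22 °C until bolting and at day and night temperatures of 16 °C and 14 °C from then on, and siliques of 14 to 15 days after petal emergence, with embryos at the bent-cotyledon stage, were opened by hand. Each library held the seeds of 3 to 5 siliques, with seed coat, endosperm and embryo together, and the remaining fruit tissue was sequenced apart. In such bulk samples, fewer cells of a type and less RNA per cell cannot be told apart. The labels name the pools as replicates but do not say whether they came from separate plants, so the p-values measure the spread between these libraries, which may be partly technical. The labels also give 1 age window for all pools and no stage within it.

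LHP1 encodes LIKE HETEROCHROMATIN PROTEIN 1, a chromodomain protein that binds histone H3 trimethylated on lysine 27, the mark set by Polycomb repressive complex PRC2, and that takes part in keeping marked genes silent. Polycomb repression in plants acts on flowering, floral organ and seed genes, and removal of the mark accompanies the switch from one developmental phase to the next. At the bent-cotyledon stage the embryo passes from growth to maturation, when storage proteins, oil bodies and proteins that protect against drying are laid down, while the seed coat makes flavonoids and mucilage.

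LHP1 itself was at 0.31, 0.37 and 0.382 TPM in the lhp1-6 libraries, against 20.8, 23.7 and 21.3 TPM in the Col-0 libraries. No lhp1-6 library came near a Col-0 library, and the change on the log2(TPM + 1) scale, used for all changes below, was -4.08 (SE 0.088, adjusted p = 5.56e-06), from limma with Benjamini-Hochberg adjustment over all genes tested. LHP1 thus separates the libraries as they are labelled. On this scale the changes of genes at low TPM are understated. Between 17620 and 18147 genes per library reached 1 TPM. The first principal component, with 73.0% of the variance, placed the lhp1-6 libraries at 37.5, 12.04 and 35.1 and the Col-0 libraries at -21.8, -25.7 and -37.1. The second lhp1-6 library was therefore the nearest of its group to Col-0, a position that recurs in many of the genes below. Plastid-encoded genes held 0.0516, 0.151 and 0.0462% of the TPM in lhp1-6 and 0.0862, 0.0848 and 0.0633% in Col-0, and mitochondrial genes 0.0119, 0.0274 and 0.0144% in lhp1-6 and 0.0261, 0.0289 and 0.0224% in Col-0. The second lhp1-6 library was the highest of its group in both, and the part of this in the changes of the storage genes, DOG1 and the late embryogenesis genes, in most of which the same library was the lowest of its group, was not tested. The embryo gene LEC1, the seed coat gene BAN and the endosperm gene ZOU were detected in all 6 libraries, with the values given below, while AGL36, MINI3 and IKU2, markers of the young endosperm, were at or near 0 in all.

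At an adjusted p under 0.05, 749 genes were higher in lhp1-6 (4.15% of those tested) and 4901 were lower (27.1%). TPM are shares of a total, and the median change of all 18052 genes was -0.16 on the log2 scale. The balance of the calls depended on the scaling. After rescaling each library by the median of its ratios to the geometric mean, which put the median change at 0.0050, 1534 genes were higher (8.5%) and 1591 lower (8.81%), so the share of calls that were higher was 49.1% against 13.3% for the deposited TPM. Quantile normalisation gave 1309 higher (7.25%) and 1622 lower (8.99%). With TPM recomputed after leaving out storage protein, oil body and organelle-encoded genes, 1043 were higher (5.83%) and 2361 lower (13.2%). Counts of changes of at least 1 log2 unit moved less, with 185 genes higher (1.02%) and 296 lower (1.64%) for the deposited TPM, and 228 higher (1.26%) and 187 lower (1.04%) after rescaling. For this reason the counts of the gene groups below are given under both scalings, and a gene is said to have lost its call where only 1 of them calls it. Each count is to be read beside the shares of all genes given in this paragraph, and differences from these shares were not tested.

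The number of calls also moved with single libraries. It was 353 higher and 2384 lower without lhp1-6 replicate 1, 1025 and 7297 without lhp1-6 replicate 2, and 300 and 1922 without lhp1-6 replicate 3. Without Col-0 replicate 1 it was 638 and 3523, without replicate 2 it was 327 and 2009, and without replicate 3 it was 359 and 2040. Of the 153 genes named by the rule for the text and called, 53 lost the call without lhp1-6 replicate 3, 44 without Col-0 replicate 2, 43 without Col-0 replicate 3, 41 without lhp1-6 replicate 1, 22 without Col-0 replicate 1 and 4 without lhp1-6 replicate 2. A gene named below kept its call in all 6 of these fits unless a loss is stated. When the spread was estimated from all 12 libraries, 370 genes were called higher and 2102 lower, with 7 of the 9 storage protein genes, 4 of the 9 late embryogenesis genes and 2 of the 10 oil body genes called higher, and 2 of the 19 flavonoid genes called lower. In that fit limma called no member of 6 lists, those of maturation regulators, H3K27 demethylases and trithorax proteins, endosperm, embryo surface, salicylic acid and cell division genes, and of their 73 members 1 was higher and 9 were lower at an unadjusted p under 0.05. In the 18 of 39 gene lists with no member called higher by limma, 1 of the 205 members tested was higher at an unadjusted p under 0.05, and in the 5 lists with none called lower, 2 of 59 were lower.

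**Figure D1:**
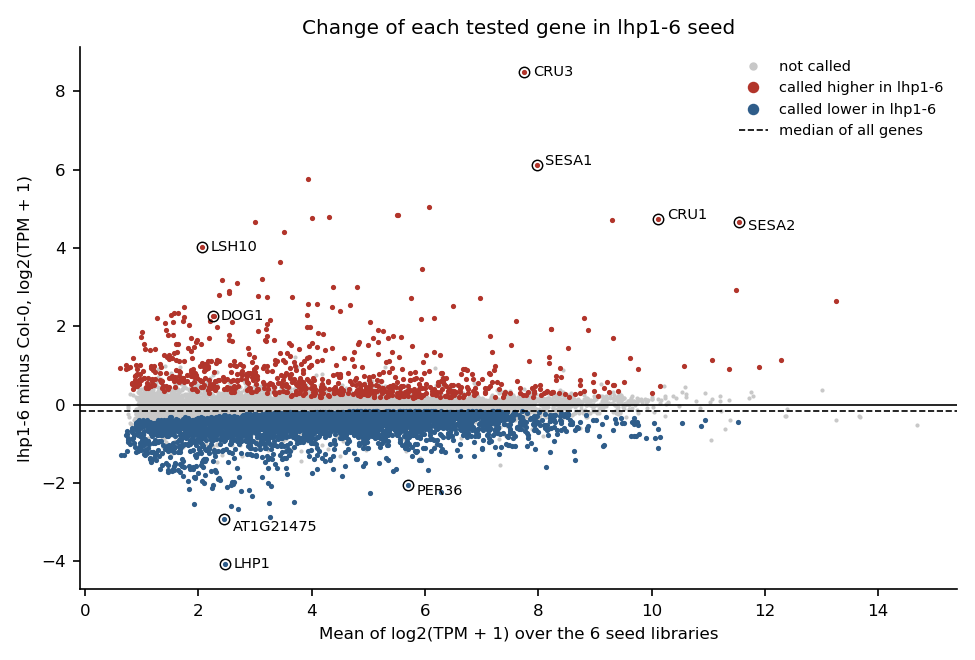
Change of each of the 18052 genes tested (vertical axis, lhp1-6 minus Col-0, log2(TPM + 1)) against its mean level over the 6 seed libraries (horizontal axis, log2(TPM + 1)). Red points are the 749 genes called higher, blue points the 4901 called lower, and the dashed line is the median change of -0.16. The largest changes are rises, led by CRU3 at 8.50 and SESA1 at 6.13.

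The clearest change was in the storage proteins. All 9 storage protein genes tested were higher in lhp1-6, and 9 of 9 were higher after rescaling, where 4.15% and 8.5% of all genes were. Their median change was 4.71, and 4.89 after rescaling. Summed over the list, storage protein transcripts reached 81992, 31914 and 97700.0 in the lhp1-6 libraries, against 6900.2, 8591 and 3597 in the Col-0 libraries, in TPM. All lhp1-6 libraries lay above all Col-0 libraries, the second of lhp1-6 being the lowest of its group. Among the 20 most abundant genes of the seed, 6 were storage protein genes in lhp1-6 and 1 in Col-0.

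CRU3, one of the cruciferins, the globulins of the protein storage vacuole, was at 5651, 1555 and 7870.0 TPM in the lhp1-6 libraries, against 6.89, 48.9 and 2.69 TPM in the Col-0 libraries. It rose by 8.50 (SE 0.98, adjusted p = 0.00261), the largest change of any gene named here. CRU1, another cruciferin, was at 6587, 3460.0 and 8334 TPM in the lhp1-6 libraries, against 187, 405 and 129 TPM in the Col-0 libraries. It rose by 4.74 (SE 0.46, adjusted p = 0.00159). CRU2, the third cruciferin, was at 4320.0, 1399.9 and 5639.9 TPM in lhp1-6, against 124, 241 and 61.7 TPM in Col-0, a rise of 4.71 (SE 0.62, adjusted p = 0.00374). The groups did not overlap in any of the 3 cruciferin genes. These genes were among the largest rises, which were limited to genes without overlap, so this separation is no separate result. In all 3 the second library was the lowest of lhp1-6 and also the highest of Col-0. The third library was in each the highest of lhp1-6 and the lowest of Col-0.

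The albumin genes SESA1 to SESA4 stand side by side on chromosome 4 and encode small storage proteins. SESA1 was at 2861, 982 and 3323 TPM in the lhp1-6 libraries, against 34.9, 30.6 and 23.2 TPM in the Col-0 libraries. It rose by 6.13 (SE 0.43, adjusted p = 0.000718). SESA2 was at 19775, 7298 and 23445 TPM in the lhp1-6 libraries, against 613, 991 and 349 TPM in the Col-0 libraries, a rise of 4.65 (SE 0.52, adjusted p = 0.00231). SESA5, the family member located elsewhere, had 553, 143 and 735 TPM in lhp1-6 and 10.9, 16.4 and 6.69 TPM in Col-0, a rise of 5.06 (SE 0.60, adjusted p = 0.00276). The groups did not overlap in any of these genes. SESA1, SESA2 and SESA5 were also among the largest rises, which were limited to genes without overlap, so this separation is no separate result. The remaining members, SESA3, SESA4 and the cupin gene AT1G03890 beside CRU2, were named after their values were seen and rose by 2.65, 2.92 and 4.41. SESA3 was on average the most abundant gene of lhp1-6 seed, with 26717 ± 11699 TPM in lhp1-6 and 4145 ± 1539.9 TPM in Col-0 (SD, n = 3 each). AT1G03890 was the member that lost its call without a library, in all but the fit without lhp1-6 replicate 2, with an adjusted p of up to 0.0673. These genes are close copies of each other, and the sources used here do not say how reads that match several copies were shared out, so the split between copies is uncertain.

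Oil body genes moved in the same direction, less far. Of 10 tested, 7 were higher and 1 was lower, under both scalings, where 4.15% of all genes were higher, and 8.5% after rescaling. The median change of the 10 was 0.93, and 1.11 after rescaling. Quantile normalisation called 3 higher and 1 lower. Without lhp1-6 replicate 1, Col-0 replicate 2 or Col-0 replicate 3 it was 3 higher, and without lhp1-6 replicate 3 it was 2. The list summed to 26286, 17136 and 26187 in the lhp1-6 libraries, against 14759, 13119 and 10282 in the Col-0 libraries, in TPM. HSD1, a steroleosin of the oil body coat, was at 312, 96.4 and 485 TPM in the lhp1-6 libraries, against 5.90, 12.01 and 6.04 TPM in the Col-0 libraries. It rose by 4.84 (SE 0.56, adjusted p = 0.00264). AT5G50700, annotated with the same product name, rose by 4.84, and the pair cannot be separated with certainty. ATPXG2, a caleosin with peroxygenase activity, had 182, 73.8 and 199 TPM in lhp1-6 and 22.0, 29.0 and 12.5 TPM in Col-0, a rise of 2.73 (SE 0.42, adjusted p = 0.00595). CLO1, the main seed caleosin, rose by 1.93 (SE 0.40, adjusted p = 0.0143), with an adjusted p of 0.0602 without lhp1-6 replicate 3. The oleosin genes OLEO1, OLEO2, OLEO4 and AT3G01570, named after their values were seen, rose by 0.90 to 1.15, and each lost its call without some library, with adjusted p-values of up to 0.132. AT1G67360, a rubber elongation factor family protein, was the member that fell, by 0.76 (SE 0.085, adjusted p = 0.00234). It was at 255, 260.4 and 228 TPM in the lhp1-6 libraries, against 456, 413 and 389 TPM in the Col-0 libraries, and the groups did not overlap.

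Of the 9 late embryogenesis abundant (LEA) and related drying-tolerance genes tested, 8 rose, and 8 rose after rescaling. The median was 1.71, and 1.88 after rescaling. LEA4-1 was at 70.7, 42.2 and 72.0 TPM in the lhp1-6 libraries, against 21.5, 18.1 and 14.0 TPM in the Col-0 libraries, a rise of 1.71 (SE 0.23, adjusted p = 0.00388). PER1, a peroxiredoxin of the maturing embryo and aleurone, was at 526, 231 and 553 TPM in the lhp1-6 libraries, against 118, 115 and 57.0 TPM in the Col-0 libraries, a rise of 2.13 (SE 0.40, adjusted p = 0.0104). LEA7 rose by 1.21 (adjusted p = 0.00434) and ECP63 by 0.70 (adjusted p = 0.00761). In these 4 genes all lhp1-6 libraries lay above all Col-0 libraries, and the second of lhp1-6 was the lowest. SAG21, the member that was lower, overlapped between the groups and lost its call after rescaling (adjusted p = 0.0959), and without lhp1-6 replicate 1, lhp1-6 replicate 3, Col-0 replicate 2 or Col-0 replicate 3 no member was lower. The late genes EM1, EM6 and M10 did not reach 1 TPM in 3 libraries and were not tested. EM6, a LEA protein of the last phase of maturation, was listed at 0.292, 0.972 and 4.25 TPM in lhp1-6 and 0.0765, 0 and 0 TPM in Col-0.

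**Figure D2:**
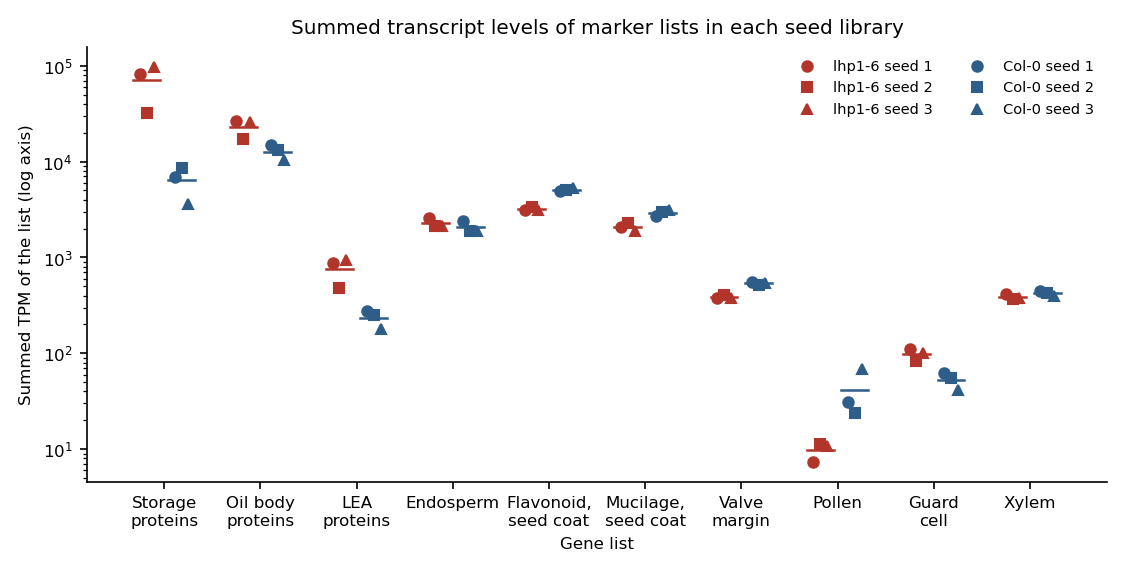
Summed TPM of the genes of each marker list (vertical axis, log scale) in each seed library, lhp1-6 in red and Col-0 in blue, with the replicate shown by the symbol and the group mean by the bar. Storage protein, oil body, LEA and guard cell sums are higher in all lhp1-6 libraries than in any Col-0 library, the flavonoid, mucilage, valve margin and pollen sums are lower in all, and the endosperm and xylem sums overlap.

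Several of the largest rises lay outside these lists. AT2G38380, annotated as a peroxidase, was at 114, 92.0 and 135 TPM in the lhp1-6 libraries, against 0.494, 4.47 and 0.0987 TPM in the Col-0 libraries, a rise of 5.77 (SE 0.54, adjusted p = 0.00148). AT1G04560, an AWPM-19-like protein, had 181, 20.7 and 279 TPM in lhp1-6 and 2.71, 4.59 and 1.54 TPM in Col-0, a rise of 4.78 (SE 0.88, adjusted p = 0.0102). The dehydrin gene AT2G21490, with the symbol LEA, was at 129, 22.6 and 190.3 TPM in the lhp1-6 libraries, against 1.92, 2.97 and 1.47 TPM in the Col-0 libraries. It rose by 4.78 (SE 0.71, adjusted p = 0.00533). AT1G14950, of a polyketide cyclase and lipid transport superfamily, rose by 4.65 (SE 0.71, adjusted p = 0.00568). No lhp1-6 library overlapped a Col-0 library in any of these genes. The largest rises were limited to genes without overlap, so this separation is no separate result. The second lhp1-6 library was the lowest of its group in each of these genes.

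LSH10 was the only gene with under 0.1 TPM in all 3 libraries of one genotype and at least 2 TPM in all 3 of the other. It belongs to the LIGHT-DEPENDENT SHORT HYPOCOTYLS-like family, whose members act at organ boundaries. It was at 17.6, 17.3 and 13.2 TPM in the lhp1-6 libraries, against 0.0452, 0 and 0.0902 TPM in the Col-0 libraries. Col-0 seed was at or near 0 in each library, and the change was 4.02 (SE 0.13, adjusted p = 4.68e-05). Here the second lhp1-6 library was level with the first, in contrast to the storage genes. No gene went the other way by the same measure. With under 0.5 TPM in place of 0.1, 7 genes were on in lhp1-6 alone and LHP1 was off.

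**Figure D3:**
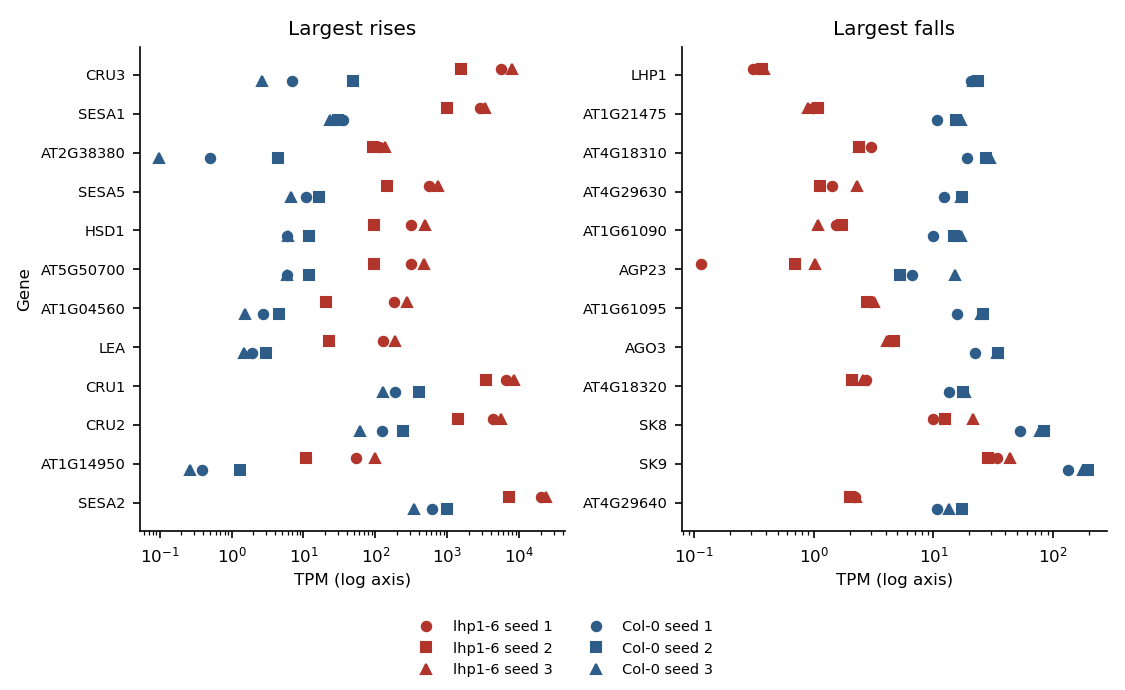
TPM in each seed library (horizontal axis, log scale) of the 12 genes with the largest rises and the 12 with the largest falls, lhp1-6 in red above Col-0 in blue. The genes were chosen among those without overlap between the genotypes, so the separation of red and blue points is set by that choice. Among the rises the second lhp1-6 library (squares) is the lowest of its group in each row.

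Regulators of embryo maturation did not move together. Of 18 tested, 2 were higher and 7 lower, and 3 were higher and 3 lower after rescaling. With the spread of all 12 libraries limma called none, with 1 higher and 3 lower at an unadjusted p under 0.05. Without lhp1-6 replicate 3 or Col-0 replicate 2 it was 1 higher and 2 lower, without lhp1-6 replicate 1 it was 1 and 3, without Col-0 replicate 1 it was 4 and 4, and without Col-0 replicate 3 it was 1 and 4. bZIP67, a bZIP factor that activates maturation genes together with LEC1-type subunits, was at 142, 87.2 and 133 TPM in the lhp1-6 libraries, against 51.3, 52.8 and 41.8 TPM in the Col-0 libraries. All lhp1-6 libraries were higher, and the rise was 1.27 (SE 0.19, adjusted p = 0.00509). LEC1, the nuclear factor Y subunit that sets embryo identity and starts maturation, was at 72.7, 107 and 75.7 TPM in the lhp1-6 libraries, against 138, 140.1 and 166 TPM in the Col-0 libraries. All lhp1-6 libraries were lower, and it fell by 0.81 (SE 0.15, adjusted p = 0.0103). LEC2, a B3-domain factor with a like role, had 4.95, 9.61 and 6.58 TPM in lhp1-6 and 12.3, 12.6 and 14.9 TPM in Col-0. It fell by 0.86 (SE 0.20, adjusted p = 0.0193), with adjusted p-values of 0.0721 without lhp1-6 replicate 3, 0.0585 without Col-0 replicate 2 and 0.0676 without Col-0 replicate 3.

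The other B3-domain regulators, which activate storage protein genes, were not called. ABI3 averaged 130.0 ± 8.74 TPM in lhp1-6 and 112 ± 13.9 TPM in Col-0 (SD, n = 3 each), a change of 0.22 (adjusted p = 0.119). FUS3 averaged 202 ± 13.0 TPM in lhp1-6 and 177 ± 25.3 TPM in Col-0 (SD, n = 3 each), a change of 0.20 (adjusted p = 0.187). ABI3 was called higher after rescaling, by 0.39 (adjusted p = 0.0457), and FUS3 was not (adjusted p = 0.0684). Without Col-0 replicate 1 both were called higher, ABI3 at 0.32 (adjusted p = 0.0327) and FUS3 at 0.30 (adjusted p = 0.0479). MYB118, which holds back maturation in the endosperm, was at 77.7, 81.9 and 65.1 TPM in the lhp1-6 libraries, against 110.3, 101 and 102 TPM in the Col-0 libraries and fell by 0.48 (SE 0.091, adjusted p = 0.0113). bZIP25, a partner of ABI3 in activating storage genes, fell by 0.29, a call that was lost after rescaling (adjusted p = 0.191) and in 4 of the 6 fits without a library, with an adjusted p of up to 0.0642 without lhp1-6 replicate 3.

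DOG1, the main quantitative regulator of seed dormancy, was at 11.9, 4.31 and 15.3 TPM in the lhp1-6 libraries, against 1.17, 1.41 and 0.983 TPM in the Col-0 libraries. The groups did not overlap, with the second lhp1-6 library the lowest of its group, and DOG1 rose by 2.25 (SE 0.38, adjusted p = 0.00776). GID1B, a gibberellin receptor that promotes germination, had 0.723, 0.924 and 0.712 TPM in lhp1-6 and 2.76, 2.38 and 2.104 TPM in Col-0 and fell by 0.93 (SE 0.12, adjusted p = 0.00377). MFT, a relative of FT that acts in seed germination, was at 765, 576 and 662 TPM in the lhp1-6 libraries, against 572, 463 and 371 TPM in the Col-0 libraries. Its change of 0.52 (adjusted p = 0.0542) did not pass the threshold, and it passed after rescaling, at 0.70 (adjusted p = 0.0454), without lhp1-6 replicate 2 (0.0298) and without Col-0 replicate 1 (0.0306). Over the dormancy and germination list, 3 of 15 were higher and 2 lower, and 4 were higher and 1 lower after rescaling. PIL5, a bHLH repressor of germination in the dark, and AT4G18650 were the other called rises, at 0.66 (adjusted p = 0.0239) and 1.402 (adjusted p = 0.0164). Without lhp1-6 replicate 1 or 3 the count was 1 higher and 1 lower, and both of these calls were lost (adjusted p of up to 0.0831 for PIL5 and 0.0645 for AT4G18650). PIL5 kept its call without lhp1-6 replicate 2 alone of the 6 libraries. The list had 2 higher and 1 lower without Col-0 replicate 2 or 3, and 3 higher and 1 lower without Col-0 replicate 1.

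Abscisic acid (ABA) is the hormone of maturation and dormancy. In ABA synthesis, 1 of 8 genes was higher and 1 lower, and 1 was higher and none lower after rescaling. Without lhp1-6 replicate 2 it was 1 higher and 3 lower, and without lhp1-6 replicate 1, lhp1-6 replicate 3, Col-0 replicate 2 or Col-0 replicate 3 limma called none, with 1 higher and 1 or 2 lower at an unadjusted p under 0.05. ABA2, which makes abscisic aldehyde, averaged 40.9 ± 3.49 TPM in lhp1-6 and 33.2 ± 1.83 TPM in Col-0 (SD, n = 3 each), a change of 0.29 (adjusted p = 0.0301) that lost its call without lhp1-6 replicate 1, lhp1-6 replicate 3, Col-0 replicate 2 or Col-0 replicate 3 (adjusted p of up to 0.106). The dioxygenase genes for the committed step that act in seeds, NCED6 and NCED9, were not called. NCED6 averaged 48.0 ± 9.34 TPM in lhp1-6 and 53.6 ± 3.70 TPM in Col-0 (SD, n = 3 each) and was called lower without lhp1-6 replicate 2 (adjusted p = 0.0141). NCED9 averaged 44.6 ± 5.74 TPM in lhp1-6 and 49.7 ± 6.81 TPM in Col-0 (SD, n = 3 each). In breakdown and conjugation, BGLU18, which frees ABA from its glucose ester, was the 1 of 5 genes that rose, under both scalings. It was at 8.48, 5.26 and 6.29 TPM in the lhp1-6 libraries, against 2.22, 2.95 and 2.40 TPM in the Col-0 libraries, with no overlap, a rise of 1.11 (SE 0.16, adjusted p = 0.00533). CYP707A1, an ABA hydroxylase, averaged 8.76 ± 0.579 TPM in lhp1-6 and 8.96 ± 1.78 TPM in Col-0 (SD, n = 3 each) and was not called, and CYP707A2 did not reach 1 TPM in any seed library.

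Transporters linked to ABA changed in both directions. Of 8 tested, 4 were higher and 3 lower, and 4 were higher and 1 lower after rescaling, as they were without Col-0 replicate 3. Without lhp1-6 replicate 3 it was 3 higher and 1 lower. ABCG22, an ABC transporter gene known for its part in stomatal water loss, was at 38.7, 39.0 and 33.9 TPM in the lhp1-6 libraries, against 66.6, 65.4 and 69.3 TPM in the Col-0 libraries. All lhp1-6 libraries were lower, and it fell by 0.84 (SE 0.068, adjusted p = 0.000879). NPF4.6, an ABA importer also known as AIT1, was at 33.3, 29.7 and 31.9 TPM in the lhp1-6 libraries, against 23.7, 22.0 and 21.1 TPM in the Col-0 libraries, with all lhp1-6 libraries higher, a rise of 0.49 (SE 0.069, adjusted p = 0.00461). ABCG31, an exporter reported to release ABA from the endosperm, had 11.3, 10.6 and 12.8 TPM in lhp1-6 and 5.40, 7.42 and 5.22 TPM in Col-0, a rise of 0.85 (SE 0.13, adjusted p = 0.00622). NPF4.5 rose by 0.45 (SE 0.087, adjusted p = 0.012). ABCG25, the exporter that acts beside ABCG31, fell by 0.32 (SE 0.068, adjusted p = 0.0158), and this call was lost after rescaling (adjusted p = 0.139), without lhp1-6 replicate 3 (0.0537) and without Col-0 replicate 3 (0.0533). ABCG40, an importer, and DTX50, an exporter, stayed under 1 TPM in each seed library.

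In ABA signalling, 2 of 26 genes were higher and 7 lower, and 2 were higher and 3 lower after rescaling, near the shares of all genes. Leaving out a library gave 0 to 4 higher and 3 to 9 lower, the highest counts coming without lhp1-6 replicate 2, and 0 higher and 3 lower coming without lhp1-6 replicate 1, Col-0 replicate 2 or Col-0 replicate 3. The kinase gene SNRK2.6 was at 11.9, 11.4 and 10.5 TPM in the lhp1-6 libraries, against 15.7, 18.7 and 18.9 TPM in the Col-0 libraries and fell by 0.61 (SE 0.089, adjusted p = 0.00513). PYL2, an ABA receptor, had 5.08, 7.84 and 5.85 TPM in lhp1-6 and 11.1, 13.6 and 16.7 TPM in Col-0 and fell by 1.03 (SE 0.18, adjusted p = 0.00845). Neither overlapped between the genotypes. Of 11 gibberellin synthesis, breakdown and DELLA genes, none was higher and 4 were lower, where 27.1% of all genes were lower. After rescaling 1 was lower, where 8.81% of all genes were, and 1 also without lhp1-6 replicate 3, Col-0 replicate 2 or Col-0 replicate 3. Without lhp1-6 replicate 2 it was 1 higher and 6 lower, and without lhp1-6 replicate 1 it was 2 lower. The one that stayed was GA2OX4, which inactivates gibberellins, at 1.11, 2.15 and 1.22 TPM in the lhp1-6 libraries, against 4.39, 5.23 and 5.37 TPM in the Col-0 libraries, a fall of 1.29 (adjusted p = 0.00366). GA20OX3, a synthesis enzyme, fell by 0.28 for the deposited TPM and lost its call after rescaling (adjusted p = 0.394), without lhp1-6 replicate 3 and without any 1 Col-0 library (adjusted p of up to 0.092).

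The falls were led by genes with no assigned function. Beside LHP1, AT1G21475, annotated as a hypothetical protein, was at 0.982, 1.08 and 0.899 TPM in the lhp1-6 libraries, against 10.6, 15.4 and 17.2 TPM in the Col-0 libraries, a change of -2.93 (SE 0.16, adjusted p = 0.000563). AT4G18310, an uncharacterized gene, was at 2.98, 2.37 and 2.40 TPM in the lhp1-6 libraries, against 19.0, 27.6 and 29.6 TPM in the Col-0 libraries, a change of -2.86 (SE 0.17, adjusted p = 0.000563). AGO3, an Argonaute that binds small RNAs and is known from seed tissue, was at 4.61, 4.68 and 4.12 TPM in the lhp1-6 libraries, against 22.1, 34.5 and 34.3 TPM in the Col-0 libraries, a change of -2.49 (SE 0.17, adjusted p = 0.000718). In each the lhp1-6 libraries were close together and far below Col-0, and the first Col-0 library was the lowest of its group. The largest falls were also limited to genes without overlap, so this separation is no separate result. AGO9 and AGO5, Argonautes known from ovules and gametes, fell by 0.72 and 0.86 (adjusted p = 0.000839 and 0.001). Of 16 Argonaute and small RNA genes, 6 were lower and none higher, where 27.1% of all genes were lower. After rescaling 3 were lower, where 8.81% of all genes were. It was 3 also without lhp1-6 replicate 3, Col-0 replicate 2 or Col-0 replicate 3. AGP23, an arabinogalactan protein gene, was at 0.114, 0.702 and 1.01 TPM in the lhp1-6 libraries, against 6.59, 5.22 and 15.1 TPM in the Col-0 libraries, a change of -2.54 (SE 0.37, adjusted p = 0.00516), with the third Col-0 library the highest.

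Some of the genes that fell lay next to each other. Of the 296 genes that fell by at least 1 log2 unit, 53 (17.9%) stood directly beside another such gene, in 23 runs, against 8 of the 185 that rose by as much (4.32%), in 3 runs. These runs were counted for the deposited TPM only. After rescaling 187 genes fell and 228 rose by as much, and some members of the runs, such as PHO2 at -0.84, no longer reached 1 unit. The difference between the shares of 17.9% and 4.32% was not tested, nor were they set against other sets of genes of these sizes. In 7 of the 23 runs, with 15 genes, every member averaged more TPM in Col-0 fruit than in Col-0 seed, and 14 of the 15 genes were highest in the third Col-0 seed library, as the pollen genes below were. These runs, picked out after their values were seen, held RALFL8 with RALFL9, PHO2 with RALFL19, VGDH1 with VGD1 and AT2G47050, sks11 with sks13, AT3G01230 with AT3G01240, AT5G26692 with AT5G26700, and AT5G45880 with SAG12. PHO2, among the 14, hardly differed between the Col-0 seed libraries, at 71.9, 72.8 and 75.4 TPM. In other runs GSTF6, GSTF5, LCR28 and DFR were also highest in the third Col-0 seed library, and SK8, SK7, SK9 and SK10 were not. The share of all genes highest in that library was not counted. Calls were lost without some library for sks11, AT2G47050, AT5G26692, RALFL19 and AT3G01240. Their adjusted p-values from limma then reached 0.081, 0.0807, 0.0618, 0.0547 and 0.0527. After rescaling, sks11 and AT2G47050 also lost their calls (adjusted p = 0.0516 and 0.0524). VGD1, of the pollen tube, averaged 12.32 TPM in Col-0 seed and 121.7 TPM in Col-0 fruit. The part of pollen RNA in these runs was not tested. A run on chromosome 1 held 4 uncharacterized genes, AT1G61090, AT1G61093, AT1G61095 and AT1G61097. AT1G61090 was at 1.54, 1.72 and 1.08 TPM in the lhp1-6 libraries, against 9.96, 14.7 and 17.0 TPM in the Col-0 libraries, a change of -2.58 (SE 0.19, adjusted p = 0.000817), and AT1G61095 changed by -2.50 (SE 0.18, adjusted p = 0.000718). A run on chromosome 4 held the cytidine deaminase family genes AT4G29620, AT4G29630, AT4G29640 and AT4G29650. AT4G29630 was at 1.41, 1.12 and 2.32 TPM in the lhp1-6 libraries, against 12.3, 17.3 and 16.9 TPM in the Col-0 libraries, a change of -2.67 (SE 0.19, adjusted p = 0.000738). AT4G29640 was at 2.201, 1.996 and 2.27 TPM in the lhp1-6 libraries, against 10.7, 17.2 and 13.6 TPM in the Col-0 libraries, a change of -2.21 (SE 0.16, adjusted p = 0.000718). AT4G18320 beside AT4G18310 changed by -2.34 (SE 0.14, adjusted p = 0.000563).

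A run on chromosome 3 held SK8, SK7, SK9 and SK10, Skp1-like genes whose products are subunits of ubiquitin ligases. SK9 was at 33.7, 28.4 and 43.7 TPM in the lhp1-6 libraries, against 134, 195 and 179 TPM in the Col-0 libraries, a change of -2.24 (SE 0.18, adjusted p = 0.000879). SK8 was at 9.97, 12.6 and 21.5 TPM in the lhp1-6 libraries, against 52.4, 84.7 and 77.2 TPM in the Col-0 libraries, a change of -2.25 (SE 0.28, adjusted p = 0.00316). In both, the third lhp1-6 library was the highest of its group and the first Col-0 library the lowest. Members of such runs are often related in sequence, and neither strand nor the handling of shared reads is known here, which leaves the values of neighbours dependent on each other. The runs among the risen genes were SESA1 to SESA4, CRU2 with AT1G03890, and the lipid transfer genes LTP2 and LP1.

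Some of the falls were in pollen genes. Of 15 pollen genes listed, 7 were tested, 5 of these were lower and none higher, and 3 were lower after rescaling, without lhp1-6 replicate 1 and without lhp1-6 replicate 3. The median was -1.46, and -1.37 after rescaling. Summed over the list they came to 7.36, 11.2 and 10.7 in the lhp1-6 libraries, against 31.0, 23.6 and 69.3 in the Col-0 libraries, in TPM. The third Col-0 library held the most, and the groups did not overlap. VGD1, a pectin methylesterase of the growing pollen tube, was at 1.05, 2.31 and 2.04 TPM in the lhp1-6 libraries, against 9.51, 5.99 and 21.5 TPM in the Col-0 libraries, a change of -2.11 (SE 0.41, adjusted p = 0.0116). VGDH1, its neighbour and relative, changed by -1.87 (SE 0.32, adjusted p = 0.00806), and AT5G45880, of the Ole e 1 allergen family, by -2.01 (SE 0.43, adjusted p = 0.0151). The sperm and generative cell markers MGH3, GEX2 and DUO1 were each under 1 TPM on average in both genotypes. AGP23, described above, had the same order of Col-0 libraries. In the fruit libraries the list summed to 169 to 205 TPM in lhp1-6 and 328 to 383 TPM in Col-0. The part of pollen RNA in the falls was not tested.

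The seed coat pathways were lower. Of 19 flavonoid and proanthocyanidin genes tested, 16 fell and none rose, and 12 fell after rescaling, where 27.1% and 8.81% of all genes fell. The median change was -0.62, and -0.45 after rescaling. Leaving out 1 library gave 12 to 16, and the spread of all 12 libraries gave 2. BAN, the anthocyanidin reductase that starts proanthocyanidins in the inner seed coat, was at 368, 413 and 386 TPM in the lhp1-6 libraries, against 761, 772 and 922 TPM in the Col-0 libraries. The lhp1-6 libraries all lay below the Col-0 libraries, and BAN fell by 1.07 (SE 0.097, adjusted p = 0.00129). GSTF12, which carries flavonoids to the vacuole, was at 59.8, 86.6 and 74.7 TPM in the lhp1-6 libraries, against 170.2, 177 and 206 TPM in the Col-0 libraries and fell by 1.32 (SE 0.14, adjusted p = 0.00181). CHS, chalcone synthase, the entry to the pathway, had 605, 648 and 614 TPM in lhp1-6 and 1022, 1077 and 1187 TPM in Col-0 and fell by 0.81 (SE 0.086, adjusted p = 0.00188). Neither overlapped between the groups. The list summed to 3162, 3334 and 3138 in the lhp1-6 libraries, against 4998, 5055 and 5244 in the Col-0 libraries, in TPM, so that here the second lhp1-6 library did not stand apart as it did in the storage genes.

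Mucilage genes of the outer seed coat were lower in 13 of 21 cases and higher in none, and in 12 after rescaling, with medians of -0.45 and -0.28. PER36, a peroxidase that loosens the outer wall for mucilage release, was at 19.9, 25.7 and 28.9 TPM in the lhp1-6 libraries, against 96.1, 98.9 and 123 TPM in the Col-0 libraries. Every lhp1-6 library was far below every Col-0 library, and the fall was 2.06 (SE 0.15, adjusted p = 0.000724). AT3G10320, of a glycosyltransferase family, and COBL2, a COBRA-like protein of mucilage cellulose, fell by 0.66 and 0.38 (adjusted p = 0.00307 and 0.00389). GL2, a homeodomain factor of epidermal cells, was at 52.5, 74.6 and 61.7 TPM in the lhp1-6 libraries, against 105, 115 and 115 TPM in the Col-0 libraries and fell by 0.83 (SE 0.12, adjusted p = 0.00494).

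Endosperm genes were mixed. Their sum was 2589, 2148 and 2145 in the lhp1-6 libraries, against 2422, 1895 and 1889 in the Col-0 libraries, in TPM, with overlap between the groups. Of 8 tested, 3 were lower and none higher, and 2 were lower and 1 higher after rescaling, while 1 was also higher without lhp1-6 replicate 2 or Col-0 replicate 1. Of all genes, 27.1% were lower and 4.15% higher, and 8.81% and 8.5% after rescaling. ZOU, the bHLH factor that drives endosperm breakdown, was at 22.1, 23.4 and 18.7 TPM in the lhp1-6 libraries, against 42.3, 36.3 and 38.2 TPM in the Col-0 libraries. No libraries overlapped, and ZOU fell by 0.84 (SE 0.096, adjusted p = 0.00255). AT1G50650, a Stig1 family gene, was at 113, 153 and 104 TPM in the lhp1-6 libraries, against 231, 223 and 278 TPM in the Col-0 libraries and fell by 0.99 (SE 0.15, adjusted p = 0.0059). ALE1, a subtilisin-like protease by which the endosperm aids the embryo cuticle, fell by 0.60 (SE 0.14, adjusted p = 0.0192), a call lost after rescaling (adjusted p = 0.0532), without lhp1-6 replicate 3 (0.0533) and without Col-0 replicate 3 (0.0591). In the embryo surface list, 2 of 8 were lower and none higher, and 2 were lower and 1 higher after rescaling. GSO2, a receptor kinase of embryo cuticle formation, was at 19.7, 18.9 and 19.8 TPM in the lhp1-6 libraries, against 29.6, 29.7 and 30.7 TPM in the Col-0 libraries and fell by 0.60 (SE 0.053, adjusted p = 0.00125), and GL2 was the other.

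**Figure D4:**
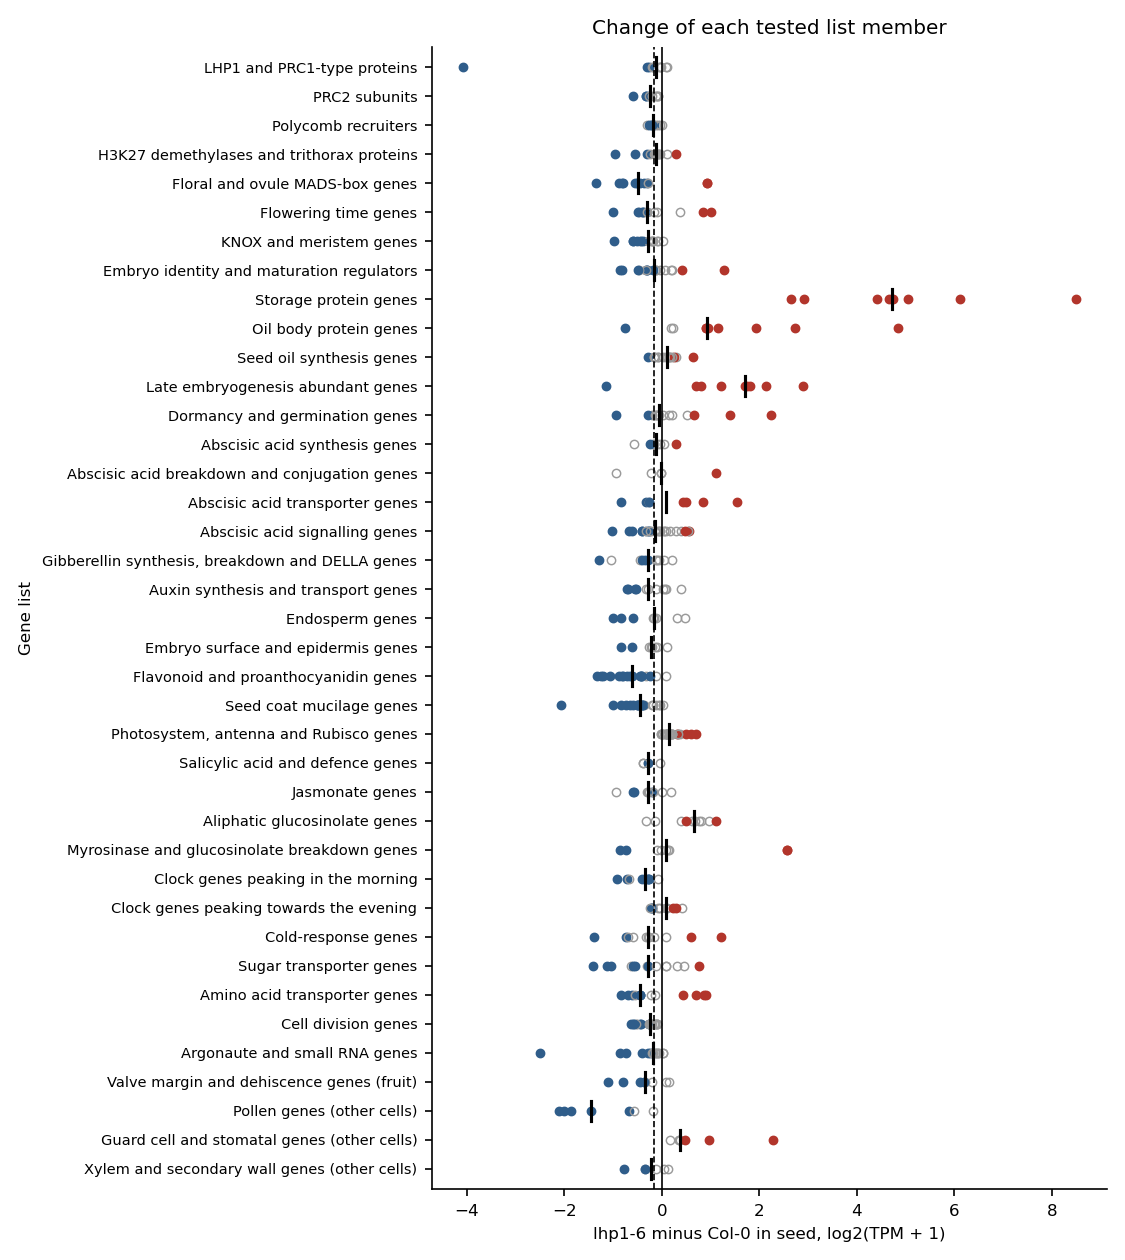
Change of each tested member of the 39 gene lists (horizontal axis, difference of log2(TPM + 1)), filled where called higher (red) or lower (blue) and open where not called. Black bars are list medians and the dashed line is the median of all genes, -0.16. Storage protein genes lie at 2.65 to 8.50, and of the other lists LEA genes (1.71) and pollen genes (-1.46) have a median more than 1 unit from 0.

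Among floral and ovule MADS-box genes, a family with many Polycomb targets, 10 of 13 fell and 2 rose, where 27.1% and 4.15% of all genes did. After rescaling 9 fell and 2 rose, where 8.81% and 8.5% of all genes did. Leaving out 1 library gave 9 or 10 lower and 2 higher. AG, which specifies carpels and stamens, was at 6.67, 6.85 and 5.07 TPM in the lhp1-6 libraries, against 17.5, 16.6 and 17.7 TPM in the Col-0 libraries. All lhp1-6 libraries were below all Col-0 libraries, and AG fell by 1.35 (SE 0.11, adjusted p = 0.000852). SHP2, which acts in ovule integuments and the fruit margin, was at 138, 156 and 145 TPM in the lhp1-6 libraries, against 237, 258 and 266 TPM in the Col-0 libraries and fell by 0.79 (SE 0.072, adjusted p = 0.00129). The groups did not overlap. STK, which gives ovules and seed coat their identity, had 31.1, 30.4 and 30.4 TPM in lhp1-6 and 43.0, 45.4 and 42.3 TPM in Col-0 and fell by 0.50 (SE 0.052, adjusted p = 0.0019). ABS, the factor behind inner seed coat pigment, fell by 0.88 (SE 0.069, adjusted p = 0.000829). Both members that rose, SEP4 and PI, were named after their values were seen and were at low level. SEP4 was at 1.52, 1.26 and 1.21 TPM in the lhp1-6 libraries, against 0.227, 0.225 and 0.227 TPM in the Col-0 libraries, a rise of 0.92 (SE 0.12, adjusted p = 0.00387). PI was at 2.06, 2.93 and 1.43 TPM in the lhp1-6 libraries, against 0.506, 0.669 and 0.674 TPM in the Col-0 libraries, a rise of 0.93 (SE 0.19, adjusted p = 0.0126). Neither overlapped between the groups.

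Flowering time genes gave 2 higher and 5 lower of 13, and 2 higher and 2 lower after rescaling. Without lhp1-6 replicate 3 or Col-0 replicate 2 it was 1 higher and 2 lower, without lhp1-6 replicate 2 it was 2 and 9, without Col-0 replicate 1 it was 2 and 3, and without Col-0 replicate 3 it was 1 and 3. SOC1, an integrator that promotes flowering, was at 6.30, 8.63 and 7.52 TPM in the lhp1-6 libraries, against 3.55, 2.599 and 3.40 TPM in the Col-0 libraries, with no overlap, a rise of 1.02 (SE 0.14, adjusted p = 0.00402). AGL72, a close relative, had 1.48, 1.03 and 1.46 TPM in lhp1-6 and 3.94, 3.55 and 3.37 TPM in Col-0 and fell by 0.997 (SE 0.12, adjusted p = 0.00295). FLC, the repressor of flowering best known as a Polycomb target, was at 69.0, 61.0 and 59.3 TPM in the lhp1-6 libraries, against 88.5, 86.6 and 77.0 TPM in the Col-0 libraries. It fell by 0.41 (SE 0.081, adjusted p = 0.0123), a call lost after rescaling (adjusted p = 0.111), without lhp1-6 replicate 3 (0.0516) and without Col-0 replicate 2 (0.0517). FT, the mobile flowering signal and a known target of LHP1 in leaves, was at 7.77, 14.6 and 7.24 TPM in the lhp1-6 libraries, against 17.6, 11.4 and 12.1 TPM in the Col-0 libraries. The groups overlapped and FT was not called (adjusted p = 0.197), though without lhp1-6 replicate 2 it was called lower, at -0.76 (adjusted p = 0.0153).

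KNOX and meristem genes were lower in 6 of 15 cases and higher in none, and in 3 after rescaling, where 27.1% and 8.81% of all genes were lower. It was 3 also without lhp1-6 replicate 1, lhp1-6 replicate 3, Col-0 replicate 2 or Col-0 replicate 3, and 4 without Col-0 replicate 1. The 3 were class II genes, KNAT7 with a fall of 0.59 (SE 0.065, adjusted p = 0.00228), KNAT4 with 0.98 (SE 0.13, adjusted p = 0.00377) and KNAT3 with 0.58 (SE 0.091, adjusted p = 0.00629). KNAT7, also a regulator of seed coat mucilage, was at 111, 119 and 104 TPM in the lhp1-6 libraries, against 163, 174 and 167 TPM in the Col-0 libraries. Of 11 auxin synthesis and transport genes, 4 fell under both scalings and none rose, and 3 or 4 fell when 1 library was left out, with 1 rise without lhp1-6 replicate 2. The efflux carrier gene PIN3 was at 10.9, 13.3 and 11.5 TPM in the lhp1-6 libraries, against 20.6, 19.0 and 20.8 TPM in the Col-0 libraries, without overlap, and fell by 0.71 (SE 0.085, adjusted p = 0.00279).

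Among genes of the Polycomb machinery itself, LHP1 changed most. In the list of LHP1 and PRC1-type proteins, 3 of 10 were lower, LHP1 included, and after rescaling LHP1 was lower and the RING protein gene BMI1A higher, by 0.29 (adjusted p = 0.0374). Leaving out lhp1-6 replicate 1, lhp1-6 replicate 3 or Col-0 replicate 3 left LHP1 as the 1 member called, and leaving out lhp1-6 replicate 2 gave 5. LIF2, which binds LHP1, and VRN1 fell by 0.26 and 0.30 for the deposited TPM and lost their calls after rescaling (adjusted p = 0.208 and 0.162). VRN1 lost its call also without Col-0 replicate 1 or 2. In PRC2, 4 of 10 subunit genes were lower, and 1 after rescaling or without Col-0 replicate 2, VIN3, an accessory protein of the cold-induced complex. VIN3 was at 6.44, 6.78 and 4.95 TPM in the lhp1-6 libraries, against 8.99, 9.89 and 9.88 TPM in the Col-0 libraries, without overlap, and fell by 0.59 (SE 0.11, adjusted p = 0.0114). Without lhp1-6 replicate 1, lhp1-6 replicate 3 or Col-0 replicate 3 it was 2. Of the methyltransferase genes, CLF averaged 13.0 ± 0.791 TPM in lhp1-6 and 13.7 ± 0.435 TPM in Col-0 and was not called, and SWN averaged 34.0 ± 1.36 TPM in lhp1-6 and 42.6 ± 2.16 TPM in Col-0 (SD, n = 3 each). SWN fell by 0.31 and the WD40 subunits MSI1 and FIE by 0.33 and 0.26, and none of these calls held after rescaling (adjusted p = 0.158, 0.103 and 0.322). SWN also lost its call without Col-0 replicate 2, MSI1 without each library but lhp1-6 replicate 2 and Col-0 replicate 1, and FIE without each but lhp1-6 replicate 2 (adjusted p of up to 0.0516, 0.0738 and 0.115). Of 10 recruiter genes, 5 were lower and none after rescaling, and 1 was lower in each fit without a library other than lhp1-6 replicate 2. After rescaling, at an unadjusted p under 0.05, 1 recruiter was higher and none lower. Beside the counts of these lists stand 27.1% of all genes lower and 4.15% higher, and 8.81% and 8.5% after rescaling. With 10 members per list, whether the counts differ from these shares was not tested.

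In the list of H3K27 demethylases and trithorax proteins, which oppose Polycomb repression, 3 of 13 were lower and 1 higher, and 2 of each after rescaling. Beside these stand 27.1% of all genes lower and 4.15% higher, and 8.81% and 8.5% after rescaling, so that with so few members the counts were near the shares of all genes. With the spread of all 12 libraries limma called none, with 2 lower and none higher at an unadjusted p under 0.05. ULT2, a relative of ULT1, was at 30.4, 38.7 and 29.7 TPM in the lhp1-6 libraries, against 60.8, 63.2 and 70.4 TPM in the Col-0 libraries. All lhp1-6 libraries were lower, and ULT2 fell by 0.96 (SE 0.11, adjusted p = 0.00245). ULT1, a trithorax-group protein that counters Polycomb repression at AG, was at 60.3, 68.2 and 59.9 TPM in the lhp1-6 libraries, against 85.2, 94.8 and 96.7 TPM in the Col-0 libraries and fell by 0.55 (SE 0.075, adjusted p = 0.00432). REF6, a demethylase, fell by 0.30 for the deposited TPM, a call lost after rescaling (adjusted p = 0.117), and without lhp1-6 replicate 1, lhp1-6 replicate 3, Col-0 replicate 2 or Col-0 replicate 3 (adjusted p of up to 0.0699). Without these libraries the count of members that were lower was 2, and the member called higher lost its call in all but the fit without Col-0 replicate 3.

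Nutrient carriers of the seed changed in both directions. Of 14 sugar transporter genes, 6 were lower and 1 higher, where 27.1% and 4.15% of all genes were. After rescaling 5 were lower and 2 higher, where 8.81% and 8.5% of all genes were. The count of higher ones was 2 without lhp1-6 replicate 2 and 0 without lhp1-6 replicate 3 or Col-0 replicate 2. SWEET1, a sugar facilitator, was at 33.1, 35.0 and 34.9 TPM in the lhp1-6 libraries, against 73.0, 71.8 and 84.0 TPM in the Col-0 libraries, with no overlap, and fell by 1.13 (SE 0.072, adjusted p = 0.000685). SWEET10, another facilitator, was at 114, 129 and 132 TPM in the lhp1-6 libraries, against 279.6, 251 and 240.2 TPM in the Col-0 libraries and fell by 1.03 (SE 0.083, adjusted p = 0.000865). SWEET12, which feeds sugar to the embryo from the seed coat, fell by 0.58 (SE 0.065, adjusted p = 0.00237), and STP1, a hexose importer, by 1.42 (SE 0.21, adjusted p = 0.00546). Of 13 amino acid transporter genes, 4 were higher and 6 lower, and 4 were higher and 3 lower after rescaling. Without lhp1-6 replicate 1, Col-0 replicate 2 or Col-0 replicate 3 it was 2 and 2, without lhp1-6 replicate 3 it was 2 and 4, and without Col-0 replicate 1 it was 3 and 4. UMAMIT18, an amino acid carrier of the silique, was at 166, 127 and 137 TPM in the lhp1-6 libraries, against 75.8, 75.2 and 73.9 TPM in the Col-0 libraries, a rise of 0.92 (SE 0.096, adjusted p = 0.00183). UMAMIT25, a relative, was at 462, 399 and 442 TPM in the lhp1-6 libraries, against 259, 311 and 231 TPM in the Col-0 libraries, a rise of 0.71 (SE 0.12, adjusted p = 0.0073). LHT1, an importer, fell by 0.83 (SE 0.098, adjusted p = 0.00268). None of these overlapped between the groups.

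Of the defence pathways, glucosinolate breakdown held the largest changes. ESM1 and TGG1, which act in the breakdown of glucosinolates, both rose. ESM1 was at 54.4, 26.4 and 47.4 TPM in the lhp1-6 libraries, against 6.95, 8.02 and 3.81 TPM in the Col-0 libraries, a rise of 2.58 (SE 0.31, adjusted p = 0.003). TGG1, a myrosinase of guard and idioblast cells with the near copy TGG2, was at 51.9, 18.5 and 49.2 TPM in the lhp1-6 libraries, against 6.81, 7.58 and 2.79 TPM in the Col-0 libraries, a rise of 2.56 (SE 0.45, adjusted p = 0.00856). NSP1, a nitrile-specifier protein gene, fell by 0.85 (SE 0.12, adjusted p = 0.00445). Over the list of 9, 2 rose and 2 fell, and 4 rose and 2 fell after rescaling, with 1 fall without lhp1-6 replicate 3. In the aliphatic glucosinolate list 2 of 10 rose under both scalings, AOP3 with 1.11 (adjusted p = 0.0167) and FMOGS-OX1 with 0.51 (adjusted p = 0.0463), the last of which lost its call without any 1 library. Without Col-0 replicate 1 it was 7, without lhp1-6 replicate 2 it was 1, and without any one of the other 4 libraries limma called none of them, with 2 to 4 higher and up to 1 lower at an unadjusted p under 0.05. Of 10 jasmonate genes 3 were lower, and 1 after rescaling, near the 27.1% and 8.81% of all genes. It was 1 also without lhp1-6 replicate 1, lhp1-6 replicate 3, Col-0 replicate 2 or Col-0 replicate 3. This was AOS, of jasmonate synthesis, which fell by 0.60 (SE 0.11, adjusted p = 0.0114). Of 5 salicylic acid genes 1 was lower, NPR1, and its call was lost after rescaling (adjusted p = 0.337) and in all fits without a library but that without Col-0 replicate 1 (adjusted p of up to 0.142).

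Guard cell and stomatal genes were higher in 3 of 7 tested under both scalings, and all 7 had changes above 0. Without Col-0 replicate 1 it was 2, without lhp1-6 replicate 2 it was 4, and without any one of the other libraries it was 1. MYB60, a factor of guard cells, was at 33.8, 27.6 and 35.8 TPM in the lhp1-6 libraries, against 4.73, 10.2 and 3.92 TPM in the Col-0 libraries. The groups did not overlap, and MYB60 rose by 2.28 (SE 0.29, adjusted p = 0.00332). The calls of EPF2 and POLAR were each lost without lhp1-6 replicate 1, lhp1-6 replicate 3, Col-0 replicate 2 or Col-0 replicate 3 (adjusted p of up to 0.111 and 0.113), EPF2 also without Col-0 replicate 1 and POLAR also without lhp1-6 replicate 2. The list summed to 111, 82.8 and 101 in the lhp1-6 libraries, against 62.2, 55.4 and 41.6 in the Col-0 libraries, in TPM. The late markers KAT1, KAT2, FAMA and SLAC1 of mature or maturing guard cells did not reach the 1 TPM filter, and neither did MUTE. Xylem genes were lower in 2 of 6, CESA7 with a fall of 0.76 (SE 0.11, adjusted p = 0.00458) and CAD5 with a fall of 0.34 that lost its call after rescaling (adjusted p = 0.0697). Fruit margin genes were lower in 4 of 8 and higher in none, and after rescaling 4 were lower and 1 was higher, YAB3, named after its values were seen, at 0.32 (adjusted p = 0.0401). Of those that were lower 3 were SHP1, SHP2 and RPL, and the list summed to 380.2, 407 and 378 in the lhp1-6 libraries, against 551, 515 and 541 in the Col-0 libraries, in TPM. SHP1 fell by 0.37 and RPL by 0.45 (adjusted p = 0.00845 and 0.00646). The dehiscence genes IND, NST1, NST3, ADPG1, ADPG2 and FUL were each under 1 TPM on average in both genotypes.

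Photosystem, antenna and Rubisco genes were higher in 4 of 28 and lower in none, and in 10 after rescaling. Quantile normalisation gave 3. Without lhp1-6 replicate 3 limma called none, with 5 higher at an unadjusted p under 0.05, and without lhp1-6 replicate 1 or Col-0 replicate 2 it called 2. LHCA2, an antenna protein of photosystem I, was at 763, 711 and 809 TPM in the lhp1-6 libraries, against 581, 472 and 556 TPM in the Col-0 libraries, a rise of 0.51 (SE 0.10, adjusted p = 0.0125) with an adjusted p of 0.0541 without lhp1-6 replicate 3. In seed oil synthesis 2 of 17 were higher and 1 lower, and 5 were higher after rescaling. Without lhp1-6 replicate 2 it was 2 higher and 3 lower. Without lhp1-6 replicate 1, lhp1-6 replicate 3, Col-0 replicate 2 or Col-0 replicate 3 limma called none, with 2 higher and 1 or 2 lower at an unadjusted p under 0.05. FAD3, the desaturase that makes linolenic acid, averaged 400.4 ± 83.9 TPM in lhp1-6 and 255 ± 36.5 TPM in Col-0 (SD, n = 3 each), a rise of 0.63 that was lost without lhp1-6 replicate 1, lhp1-6 replicate 3, Col-0 replicate 2 or Col-0 replicate 3 (adjusted p of up to 0.106). Cell division genes were lower in 6 of 21 and higher in none, and in 2 after rescaling, near the 27.1% and 8.81% of all genes. Without lhp1-6 replicate 2 it was 16, without Col-0 replicate 1 it was 4, without lhp1-6 replicate 1 or Col-0 replicate 2 it was 1, and without lhp1-6 replicate 3 or Col-0 replicate 3 limma called none, with 6 and 8 lower at an unadjusted p under 0.05. The replication clamp gene PCNA2 averaged 35.2 ± 7.79 TPM in lhp1-6 and 54.6 ± 2.51 TPM in Col-0 (SD, n = 3 each), a change of -0.64 (adjusted p = 0.0159) that lost its call without lhp1-6 replicate 1, lhp1-6 replicate 3 or Col-0 replicate 3 (adjusted p of up to 0.0639).

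Clock genes that peak in the morning were lower in 7 of 9, where 27.1% of all genes were. The count was 2 after rescaling, where 8.81% of all genes were lower, 4 without lhp1-6 replicate 3 and 3 without Col-0 replicate 2. Those called after rescaling were CCA1 and LHY, the paired MYB factors of the central loop. CCA1 was at 5.26, 4.99 and 4.52 TPM in the lhp1-6 libraries, against 9.89, 8.54 and 7.86 TPM in the Col-0 libraries, without overlap, and fell by 0.72 (SE 0.10, adjusted p = 0.00464). LHY was at 5.78, 4.61 and 3.81 TPM in the lhp1-6 libraries, against 12.7, 8.93 and 8.23 TPM in the Col-0 libraries and fell by 0.93 (SE 0.18, adjusted p = 0.012). Genes that peak towards the evening were higher in 2 and lower in 2 of 13, and higher in 3 and lower in none after rescaling. Without lhp1-6 replicate 1, lhp1-6 replicate 3, Col-0 replicate 2 or Col-0 replicate 3 limma called none, with 2 or 3 in each direction at an unadjusted p under 0.05, and without Col-0 replicate 1 it called 1 higher. Cold-response genes were higher in 2 and lower in 2 of 11, and higher in 1 and lower in 2 after rescaling. It was 1 higher in each fit without a library but that without lhp1-6 replicate 2, and 4 lower without Col-0 replicate 1. LTI30, a dehydrin, was at 8.85, 8.78 and 9.80 TPM in the lhp1-6 libraries, against 25.8, 23.4 and 27.8 TPM in the Col-0 libraries. All lhp1-6 libraries were far below Col-0, and LTI30 fell by 1.39 (SE 0.083, adjusted p = 0.000565). COR47, another dehydrin, fell by 0.74 (SE 0.14, adjusted p = 0.0113). RD29B, an ABA-responsive gene, was at 3.01, 2.03 and 4.83 TPM in the lhp1-6 libraries, against 0.939, 0.653 and 0.785 TPM in the Col-0 libraries, a rise of 1.21 (SE 0.23, adjusted p = 0.0111). The hour of sampling is not given in the sources used here.

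The same contrast in the fruit tissue of the dissected siliques, from 3 lhp1-6 and 3 Col-0 libraries that share none with the seed, gave 221 genes higher by at least 1 log2 unit (1.17% of 18822) and 222 lower (1.18%). Of the 16977 genes tested in both tissues, 158 were higher by that measure in seed, 139 in fruit, and 44 in both, which is 27.8% of the seed genes and 31.7% of the fruit genes. For genes that were lower the counts were 242 in seed, 109 in fruit and 18 in both, or 7.44% of the seed genes and 16.5% of the fruit genes. Of the genes higher in seed 2 were lower in fruit by the same measure. Across those 16977 genes the changes in seed and fruit had a Pearson r of 0.52 and a Spearman rho of 0.36, given as a description across genes, which are not independent replicates. CRU3 averaged 688 ± 236 TPM in lhp1-6 fruit and 1.29 ± 1.38 TPM in Col-0 fruit (SD, n = 3 each), a change of 8.33 in fruit (adjusted p = 0.00165), beside 8.50 in seed. Genes of seed tissues were also found in the fruit libraries. Storage protein genes summed to 9417, 5814 and 7106 TPM in lhp1-6 fruit and to 1753, 263.8 and 92.4 TPM in Col-0 fruit. Endosperm genes summed to 351, 346 and 241 TPM in lhp1-6 fruit and to 617, 135 and 197 TPM in Col-0 fruit, and flavonoid genes to 739, 757 and 661 TPM in lhp1-6 fruit and to 1647, 450.1 and 555 TPM in Col-0 fruit. The first Col-0 fruit library thus stood apart from the other Col-0 fruit libraries in all 3 sums. The part of seed tissue in the fruit libraries in the fruit changes, and in the genes they shared with seed, was not tested.

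The difference of the genotype effect between the tissues was tested over all 12 libraries in 19946 genes and called for 1100 of them (5.51%). With same-numbered fruit and seed libraries as a block, 497 were called, and without Col-0 fruit replicate 1, 4085. The 12 largest rises and 12 largest falls were chosen by their change in these same seed libraries, which favours a larger effect in seed. None of the 12 largest rises in seed was called for this difference. AT2G38380 had a difference of 2.06 (SE 0.68, adjusted p = 0.104) and SESA1 of -0.29 (SE 1.02, adjusted p = 0.895). Among the 12 largest falls, 3 were called, where 3.8% of all genes had a negative difference called, all with a larger fall in seed and all also after rescaling. Without Col-0 fruit replicate 1, 4085 of the 19946 genes were called in either direction. In that fit 10 of these 12 falls were called, all but AGP23 and SK9, and still none of the 12 rises. The share of negative calls over all genes was not counted for that fit, and the 3.8% does not apply to it. For LHP1 the difference over all 12 libraries was -0.76 (SE 0.14, adjusted p = 0.0124), with an adjusted p of 0.0531 under the block. LHP1 averaged 0.791 ± 0.0826 TPM in lhp1-6 fruit and 16.9 ± 1.403 TPM in Col-0 fruit (SD, n = 3 each). For AT1G21475 the difference was -2.28 (SE 0.44, adjusted p = 0.0169) and for AT4G29630 -2.30 (SE 0.49, adjusted p = 0.0257), with adjusted p-values of 0.0613 and 0.0786 under the block. AT1G21475 averaged 0.236 ± 0.202 TPM in lhp1-6 fruit and 1.11 ± 1.07 TPM in Col-0 fruit, and AT4G29630 0.927 ± 0.298 TPM in lhp1-6 fruit and 1.75 ± 1.49 TPM in Col-0 fruit (SD, n = 3 each). At these Col-0 fruit levels the log2(TPM + 1) scale leaves no room for falls as large as those of the 2 genes in seed.

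**Figure D5:**
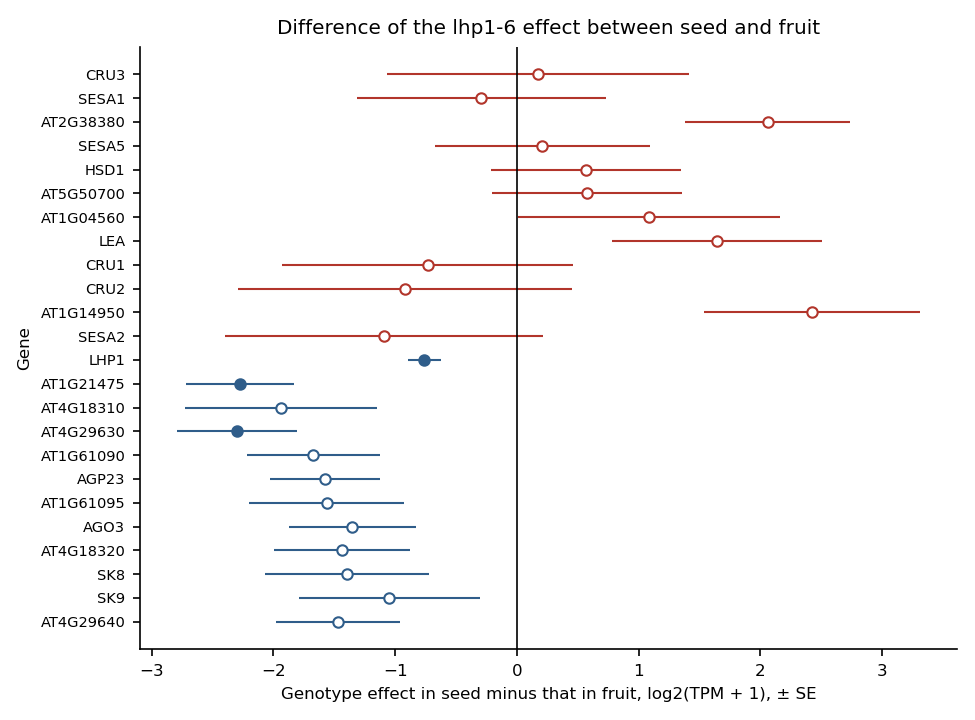
Difference of the genotype effect, seed minus fruit, on the log2(TPM + 1) scale with its standard error (horizontal axis) for the 12 largest rises (red) and the 12 largest falls (blue) in seed, filled where called over all 12 libraries. The rises lie on both sides of 0 and none is called, while the falls all lie below 0 and 3 are called. The genes were chosen by their change in the same seed libraries, which favours a larger effect in seed. Some falls are near the floor of the scale in Col-0 fruit, so the sides of 0 are not a test.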

How the data were processed

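Total RNA from hand-dissected seeds of lhp1-6 and Col-0 was sequenced as 100 bp paired reads, per the labels' protocols. Per the submitters' processing notes, cutadapt 1.9.1, STAR 2.5, featureCounts without a stated version and the TAIR10 genome were used. Each library had 1 table of TPM by gene, deposited by the authors and named so in the file headers. TPM keep no sequencing depth, so depth per library is unknown and no counting intervals were made. A fruit table held 22 columns without a name, which were not used. The 6 seed libraries summed to between 982093 and 986706 TPM. No pair of seed libraries held identical values. No source used here gives the strandedness or how reads that match several genes were counted.

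Genes at 1 TPM or more in 3 or more of the 6 seed libraries were tested on log2(TPM + 1) with limma 3.58.1 in R 4.3.3, with variances that follow the mean, 1 mean per group, two-sided tests and Benjamini-Hochberg adjustment over all genes tested, with a threshold of 0.05. The difference between tissues was fitted over all 12 libraries. On simulated data for the seed comparison, with 50 genes at each change, 86% of changes of 1 and 88% of changes of -1 log2 unit were recovered. For changes of 2 and -2 it was 98% and 100%, and there were 10 false calls. No other gene was changed, and the changed genes were drawn from those above a minimum level. The noise was independent between genes, without a shift shared by many genes as in the data. These rates therefore need not hold for the seed comparison itself. Same-numbered seed libraries of the genotypes had deviations correlated at 0.444, -0.042 and 0.120 and were not treated as pairs. Same-numbered fruit and seed libraries had correlations of 0.113 to 0.311 in all 6 pairs and were blocked as an alternative. Alternatives changed the pseudocount, filter, scaling, libraries, variance model and minimum change.

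The genes named were LHP1, the 12 largest called changes per direction without overlap whose higher genotype averaged 5 TPM or more, up to 4 members per list with the smallest adjusted p, a fixed set of maturation, flowering, ABA and Polycomb genes, and genes switched on or off. Members and lists were chosen with earlier results of these data known. The TAIR10.1 annotation gave symbols, products and the order of genes. It held 26715 of the identifiers, 10374 of them with a symbol. As its build differs from TAIR10, no coordinates or sequences are given.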

Additional observations from a re-analysis of the deposited data

Results flagged for a closer look

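The genotype effect differed between seed and fruit, by a test of the difference itself over all 12 libraries, for 3 of the genes with the largest changes. It was lower in seed by -0.76 for LHP1, -2.28 for AT1G21475 and -2.30 for AT4G29630 on the log2(TPM + 1) scale, and none of the 3 was called with same-numbered fruit and seed libraries as a block. AT1G21475 and AT4G29630 averaged 1.11 and 1.75 TPM in Col-0 fruit, where this scale leaves no room for falls as large as those in seed. The genes with the largest changes were chosen by their change in the same seed libraries, which favours a larger effect in seed.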

How the results depend on the processing

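LHP1 was called lower under each of the 18 alternatives. The main counts were 749 genes higher and 4901 lower. They were 1534 and 1591 after rescaling by the median of ratios, 1309 and 1622 after quantile normalisation, 2361 lower with recomputed TPM, 370 and 2102 with all 12 libraries, 1236 and 8374 with array weights, and 7 and 8 against a minimum change of 1 log2 unit. Leaving out 1 library gave 300 to 1025 higher and 1922 to 7297 lower. Counts of changes of at least 1 log2 unit were 185 higher and 296 lower. They were 108 and 104 with a pseudocount of 5, 478 lower with 0.1, 185 lower with a filter of 5 TPM, 187 lower after rescaling by the median of ratios, 180 lower by quantile, and 116 to 234 higher and 211 to 428 lower without 1 library. The tissue difference was called for 1100 genes, 497 with the replicate block and 4085 without Col-0 fruit replicate 1. The causes were not tested, except that a pseudocount acts by its construction on low genes.

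With a replicate block over same-numbered seed libraries, 793 genes were higher and 4635 lower, and 10 of 153 named calls were lost. Of the 153, 33 were lost and 1 changed sign after rescaling, 33 were lost after quantile normalisation and 64 with all 12 libraries. The genes that changed sign, listed next, include named genes outside the 153, which were not called. All were below 0 for the deposited TPM. After rescaling, quantile normalisation and recomputed TPM, in that order, the changes were 0.12, 0.11 and 0.064 for RING1A, 0.13, 0.15 and 0.077 for RING1B, 0.15, 0.15 and 0.095 for EMF1, 0.059, 0.040 and 0.00039 for EMF2, 0.088, 0.096 and 0.033 for CLF, 0.085, 0.15 and 0.050 for UGT71B6, and 0.14, 0.18 and 0.090 for CYP707A1. After rescaling and quantile normalisation they were 0.046 and 0.037 for VRN5, 0.031 and 0.091 for FIS2, and 0.022 and 0.0015 for NCED9. After rescaling they were 0.0010 for EBS, 0.0096 for BPC1, 0.027 for LPAT2 and 0.0037 for NCED6. Without 1 library they ranged between -0.043 and 0.017 for EMF1, -0.27 and 0.17 for FIS2, -0.061 and 0.0098 for UGT71B6, and -0.17 and 0.076 for CYP707A1. The causes of these changes were not tested. Depth per library is unknown beyond the stated minimum, so no counting error can be given for low TPM.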
